A study of Homo sapiens with 16 samples.

Results

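The genes described here are 7 secreted proteases of the ADAMTS family (ADAMTS1, ADAMTS2, ADAMTS4, ADAMTS5, ADAMTS8, ADAMTS9 and ADAMTS12) and 3 tissue inhibitors of metalloproteinases (TIMP1, TIMP2 and TIMP3). These 10 genes were selected by name from the 60649 genes of the count table, with their response to mitomycin C (MmC) in the same libraries already known. The MmC differences of the 10 genes are therefore given as a description with no p-value, and how many of them passed the threshold used for all genes is counted only beside the share of all genes that did, while their response to growth differentiation factor 11 (GDF11) was tested. The lists of other genes below were also chosen with earlier results of these data known. Their MmC counts and p-values describe these libraries and are no independent test.

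The RNA came from ASC52telo, a line of human adipose-derived mesenchymal stem cells (MSCs) that carries telomerase reverse transcriptase, and 16 libraries of poly(A) RNA were sequenced, 4 biological replicates from each of 4 groups. MmC-/GDF11- cells received neither agent and are called young, and MmC-/GDF11+ cells received only GDF11 at 10 ng/mL. MmC+/GDF11- cells were exposed to MmC, a DNA crosslinking agent used to make the cells senescent, at 1.5 µg/mL for 18 h. MmC+/GDF11+ cells received the same MmC exposure and then GDF11 at 10 ng/mL. In both GDF11 groups, GDF11 was given over the 10 days that followed the MmC step. Cells of all 4 groups were collected after 10 days of incubation. All groups share the telomerase transgene and come from 1 immortalized line, which limits them as a model of primary MSCs.

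ADAMTS proteases cut proteins of the extracellular matrix. Some members, the aggrecanases and versicanases, cleave the core proteins of large proteoglycans, others remove the amino-terminal propeptide of fibrillar procollagens, and others still act on glycoproteins such as cartilage oligomeric matrix protein (COMP). TIMPs are small secreted proteins that occupy the active site of matrix metalloproteinases (MMPs), and TIMP3, which binds to the matrix, also inhibits several ADAM and ADAMTS proteases. Mesenchymal cells make members of both families.

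All 10 genes passed the filter on low counts. The lowest count of any of them was 10, for ADAMTS8 in replicate 1 of MmC+/GDF11+, from a total of 71275337 to 144204979 counts per library. Levels are library-scaled counts (CPM) that is, counts divided by the library total after scaling by the trimmed mean of M values (TMM), and comparisons between genes use TPM, which also divides by gene length. A gene was called changed at an adjusted p under 0.05. In the check of the treatment, CDKN1A, the cell cycle inhibitor p21, rose with MmC by 2.74 ± 0.30 on the log2 scale (standard error; edgeR quasi-likelihood test, adjusted p = 3.89e-06). LMNB1, a lamin of the nuclear envelope, fell by 2.64 on the same scale (adjusted p = 4.04e-05). The summed level of 7 MSC markers lay between 5554 and 6991 CPM in the 16 libraries, although single markers changed with MmC in either direction. PDGFRA and PDGFRB fell by 0.81 and 0.68 on the log2 scale and NT5E rose by 0.38 without GDF11 (adjusted p = 2.87e-04, 0.00112 and 0.00989, edgeR).

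Replicate 1 held the highest or lowest value for most of these genes in every group. Over the 40 combinations of gene and group it held the highest value in 24, the lowest in 12 and a value between the others in 4. ADAMTS2, ADAMTS5, ADAMTS12, TIMP2 and TIMP3 were highest in replicate 1 of all 4 groups, and ADAMTS1 was lowest there in all 4. The same count was not made for the other replicate numbers. Replicate 4, too, was the highest of all 4 groups for ADAMTS1 and ADAMTS8 and the lowest of all 4 for TIMP1. The labels give all 16 libraries the same run identifier, the study names batch effects of technical origin as a limit without saying which libraries they touch, and what sets replicate 1 apart was not tested. The MmC log2 fold changes of the 10 genes are given below with and without replicate 1, except for ADAMTS1. Shares within the pools and most genes of the other lists are given over all libraries only.

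Bases upstream of the annotated start are shown for the genes of this set in the RefSeq promoter table (GRCh38.p14), which held 4 of the 10: ADAMTS2, ADAMTS12, TIMP1 and TIMP3. They cover the 250 bases before the start, less any base that lies in an annotated exon, and they show which common promoter motifs stand next to genes that were higher with MmC (TIMP1, TIMP3), lower (ADAMTS2) or neither (ADAMTS12). They lie at chrX:47582186-47582407 on the plus strand for TIMP1, at chr22:32801455-32801704 on the plus strand for TIMP3, at chr5:179345462-179345711 on the minus strand for ADAMTS2 and at chr5:33892020-33892240 on the minus strand for ADAMTS12. Each is written 5′ to 3′ on the strand of its gene, and capitals mark the GC box GGGCGG and the AP-1 motif TGANTCA on either strand.
TIMP1: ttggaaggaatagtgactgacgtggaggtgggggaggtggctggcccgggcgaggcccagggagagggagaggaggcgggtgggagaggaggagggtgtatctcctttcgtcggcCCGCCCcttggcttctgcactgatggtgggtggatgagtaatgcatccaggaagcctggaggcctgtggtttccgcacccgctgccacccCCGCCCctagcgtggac
TIMP3: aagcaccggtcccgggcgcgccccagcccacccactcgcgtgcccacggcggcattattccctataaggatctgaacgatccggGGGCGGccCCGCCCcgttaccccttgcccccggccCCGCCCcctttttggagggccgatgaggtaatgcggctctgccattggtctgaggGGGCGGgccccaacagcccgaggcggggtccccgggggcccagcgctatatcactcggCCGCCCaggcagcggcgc
ADAMTS2: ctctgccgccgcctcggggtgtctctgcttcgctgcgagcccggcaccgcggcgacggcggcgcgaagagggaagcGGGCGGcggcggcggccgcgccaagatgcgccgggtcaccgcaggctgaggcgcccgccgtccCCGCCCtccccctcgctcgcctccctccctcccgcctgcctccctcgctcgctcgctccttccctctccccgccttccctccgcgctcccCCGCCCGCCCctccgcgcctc
ADAMTS12: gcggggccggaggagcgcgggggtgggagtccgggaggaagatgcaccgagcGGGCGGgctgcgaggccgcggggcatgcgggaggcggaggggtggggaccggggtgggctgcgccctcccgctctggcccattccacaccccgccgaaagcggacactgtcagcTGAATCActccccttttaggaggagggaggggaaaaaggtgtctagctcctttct

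GC boxes stood before the start of all 4 genes, with 2 matches for TIMP1, 5 for TIMP3, 4 for ADAMTS2 and 1 for ADAMTS12, and the motif was held by 42.3% of 27305 promoters searched over the full 250 bases, whereas the stretches shown for TIMP1 and ADAMTS12 are shorter, at 222 and 221 bases. The last 2 matches of ADAMTS2 overlap each other. The AP-1 motif TGANTCA was found only before ADAMTS12, from 84 to 78 bases upstream (positions -84 to -78), and 6.6% of all promoters hold one. Positions count from the RefSeq start, not from the end of the stretch shown. The 29 bases next to that start for ADAMTS12 and the 28 for TIMP1 lie in an annotated exon and are not shown. Only exact matches were searched, so near matches, such as tgagtaa in the TIMP1 stretch, were not counted. The CCAAT motif was found only before TIMP3, on the opposite strand at -88 to -84, and 33% of promoters hold it. No match was found for TATAAA, for CAGACA or for the kappaB motif, which 11.1%, 13.6% and 5.05% of promoters hold. These matches describe letters in the window and show no binding.

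The inhibitors were the most abundant of the 10 genes per length. In MmC-/GDF11- cells TIMP1 (ENSG00000102265.12, chrX:47582408-47586789, plus strand) had 2425 ± 864 TPM (SD, n = 4), TIMP2 (ENSG00000035862.12, chr17:78852977-78925387, minus strand) 759 ± 158 TPM and TIMP3 (ENSG00000100234.12, chr22:32801705-32863041, plus strand) 504 ± 88.5 TPM. TIMP1 lay above TIMP2 in all libraries, while the ranges of TIMP2 and TIMP3 overlapped in the MmC- groups and not in the MmC+ groups. Positions are on GRCh38.

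TIMP1, a broad soluble inhibitor of MMPs, was at 1356, 983, 767 and 571 CPM in the young cells without GDF11, in the order of replicates 1 to 4, and at 2118, 3538, 2685 and 1949 CPM in MmC+/GDF11-. With GDF11 it was at 1066, 931, 874 and 573 CPM in MmC- and at 2166, 2761, 2794 and 1929 CPM in MmC+. Every MmC+ library was above every MmC- library, and the highest young level was the one of replicate 1. The log2 fold change for MmC was 1.48 ± 0.26 without GDF11 and 1.49 ± 0.26 with it (standard error, 4 against 4 libraries), a 2.80-fold higher level in either arm. Without replicate 1 of all groups the values were 1.82 ± 0.26 and 1.66 ± 0.26.

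TIMP3, the matrix-bound inhibitor, was at 754, 584, 562 and 517 CPM in MmC-/GDF11- and at 1123, 1065, 990 and 983 CPM in MmC+/GDF11-. In the GDF11 groups it was at 765, 593, 503 and 527 CPM in MmC- and at 1137, 1076, 936 and 901 CPM in MmC+. The MmC+ and MmC- libraries did not overlap in either arm. The log2 fold changes were 0.78 ± 0.14 and 0.76 ± 0.14, and 0.87 ± 0.11 and 0.85 ± 0.11 without replicate 1.

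TIMP2, which inhibits MMPs and also takes part in the activation of pro-MMP2 at the cell surface, was at 1584, 1124, 1086 and 1108 CPM in MmC-/GDF11- and at 1850, 1753, 1580 and 1420 CPM in MmC+/GDF11-. With GDF11 the levels were 1253, 1126, 1037 and 1067 CPM in MmC- and 1779, 1602, 1534 and 1472 CPM in MmC+. The groups without GDF11 overlapped through replicate 1 of MmC-/GDF11-, and those with GDF11 did not overlap. TIMP2 was higher in MmC+ by 0.43 ± 0.13 and 0.51 ± 0.13 on the log2 scale, and by 0.52 ± 0.10 in both arms without replicate 1. Of its exon bases, 3.61% are shared with CEP295NL on the same strand and 5.91% with a long noncoding RNA on the opposite strand. Those 2 genes stayed at or under 0.368 CPM in all libraries.

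ADAMTS4 and ADAMTS5 are the aggrecanases best known from cartilage. ADAMTS4 (ENSG00000158859.10, chr1:161184302-161199054, minus strand) was at 5.60, 6.14, 6.50 and 8.61 CPM in MmC-/GDF11- and at 9.44, 25.7, 21.0 and 16.6 CPM in MmC+/GDF11-. In the GDF11 groups it was at 6.67, 7.16, 5.65 and 8.63 CPM in MmC- and at 8.59, 18.2, 21.8 and 16.3 CPM in MmC+. All MmC+ libraries were above the young ones without GDF11, and with GDF11 only replicate 1 of MmC+/GDF11+ fell within the young range. The log2 fold changes were 1.44 ± 0.29 and 1.21 ± 0.29, and 1.58 ± 0.19 and 1.40 ± 0.19 without replicate 1.

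ADAMTS5 (ENSG00000154736.6, chr21:26917922-26967088, minus strand) was at 73.1, 18.2, 25.4 and 24.2 CPM in MmC-/GDF11- and at 107, 54.3, 60.8 and 92.6 CPM in MmC+/GDF11-. With GDF11 it was at 48.2, 20.4, 22.7 and 24.1 CPM in MmC- and at 105, 57.2, 65.4 and 95.6 CPM in MmC+. Replicate 1 of MmC-/GDF11- overlapped the MmC+ range, and the remaining young libraries were all below it. The log2 fold changes were 1.16 ± 0.41 and 1.49 ± 0.41, and without replicate 1 they were 1.62 ± 0.22 and 1.70 ± 0.22. Leaving out only replicate 1 of MmC-/GDF11- moved the first of these to 1.81.

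ADAMTS1 (ENSG00000154734.16, chr21:26835755-26845409, minus strand), which cleaves versican and aggrecan and is known as an inhibitor of vessel growth, was the most abundant of the 7 proteases per length in every group. It was at 210, 266, 311 and 394 CPM in MmC-/GDF11- and at 303, 378, 392 and 552 CPM in MmC+/GDF11-. With GDF11 the levels were 222, 315, 279 and 414 CPM in MmC- and 292, 355, 391 and 601 CPM in MmC+. The groups overlapped, but every same-numbered MmC+ library was above its MmC- counterpart, by 0.34 to 0.53 on the log2 scale without GDF11 and by 0.17 to 0.54 with it. The log2 fold changes were 0.46 ± 0.25 and 0.41 ± 0.25. With the replicate number as a block they were 0.46 and 0.40, and ADAMTS1 was then counted among the genes past the threshold, which it was not without the block.

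ADAMTS9 (ENSG00000163638.13, chr3:64515654-64688000, minus strand), a widely conserved versican-cleaving protease, had the lowest level per length of the 7 proteases in young cells, at 0.276 ± 0.0714 TPM in MmC-/GDF11-. Its levels there were 1.05, 0.704, 0.642 and 0.675 CPM, against 0.729, 2.48, 2.36 and 2.69 CPM in MmC+/GDF11-. With GDF11 they were 0.945, 0.711, 0.537 and 0.726 CPM in MmC- and 0.998, 2.66, 2.89 and 2.39 CPM in MmC+. The higher level in MmC+ was thus seen in replicates 2 to 4, whereas the log2 ratio of replicate 1 was -0.53 without GDF11 and 0.08 with it. Over all libraries the log2 fold changes were 1.43 ± 0.37 and 1.62 ± 0.37, and without replicate 1 they were 1.89 ± 0.16 and 2.01 ± 0.16. ADAMTS9-AS1, on the opposite strand, shares 174 exon bases (1.63%) with ADAMTS9 and had 4 counts in the 16 libraries together.

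ADAMTS8 (ENSG00000134917.10, chr11:130404923-130428609, minus strand), described as a protease with anti-angiogenic activity, had the widest MmC difference of the 10 genes. It was at 6.45, 6.83, 6.07 and 8.92 CPM in MmC-/GDF11- and at 0.253, 0.478, 0.402 and 0.691 CPM in MmC+/GDF11-. In the GDF11 groups it was at 4.46, 6.22, 6.45 and 6.70 CPM in MmC- and at 0.137, 0.407, 0.280 and 0.822 CPM in MmC+. Each MmC+ library was under 1 CPM and each young library above 4 CPM. ADAMTS8 was 15.5-fold lower in MmC+ without GDF11 and 14.4-fold lower with it, with log2 fold changes of -3.96 ± 0.39 and -3.85 ± 0.39. Leaving out replicate 1 gave -3.80 ± 0.31 and -3.72 ± 0.31.

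ADAMTS2 (ENSG00000087116.16, chr5:179110853-179345461, minus strand), the procollagen N-proteinase whose loss causes a form of Ehlers-Danlos syndrome, was at 135, 86.1, 95.1 and 84.4 CPM in MmC-/GDF11- and at 90.0, 61.3, 49.8 and 42.6 CPM in MmC+/GDF11-. With GDF11 it was at 115, 98.6, 87.3 and 90.7 CPM in MmC- and at 85.8, 48.7, 51.6 and 46.7 CPM in MmC+. Replicate 1 of MmC+/GDF11- reached into the young range, and the groups with GDF11 did not overlap. The log2 fold changes were -0.72 ± 0.24 and -0.75 ± 0.24, and -0.79 ± 0.12 and -0.91 ± 0.12 without replicate 1.

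ADAMTS12 (ENSG00000151388.11, chr5:33523535-33892019, minus strand), a protease that cleaves COMP, had MmC log2 fold changes of 0.04 ± 0.42 and -0.01 ± 0.42 over all libraries. It was at 35.1, 18.0, 22.8 and 27.7 CPM in MmC-/GDF11- and at 54.4, 15.6, 17.4 and 19.3 CPM in MmC+/GDF11-. In the GDF11 groups the levels were 36.8, 21.6, 21.5 and 23.8 CPM in MmC- and 49.9, 16.9, 16.9 and 19.9 CPM in MmC+. Replicate 1 was higher in MmC+ and replicates 2 to 4 were lower there in both arms. Without replicate 1 the values were -0.39 ± 0.14 and -0.32 ± 0.14. Leaving out only replicate 1 of MmC+/GDF11- gave -0.56 without GDF11.

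**Figure D1:**
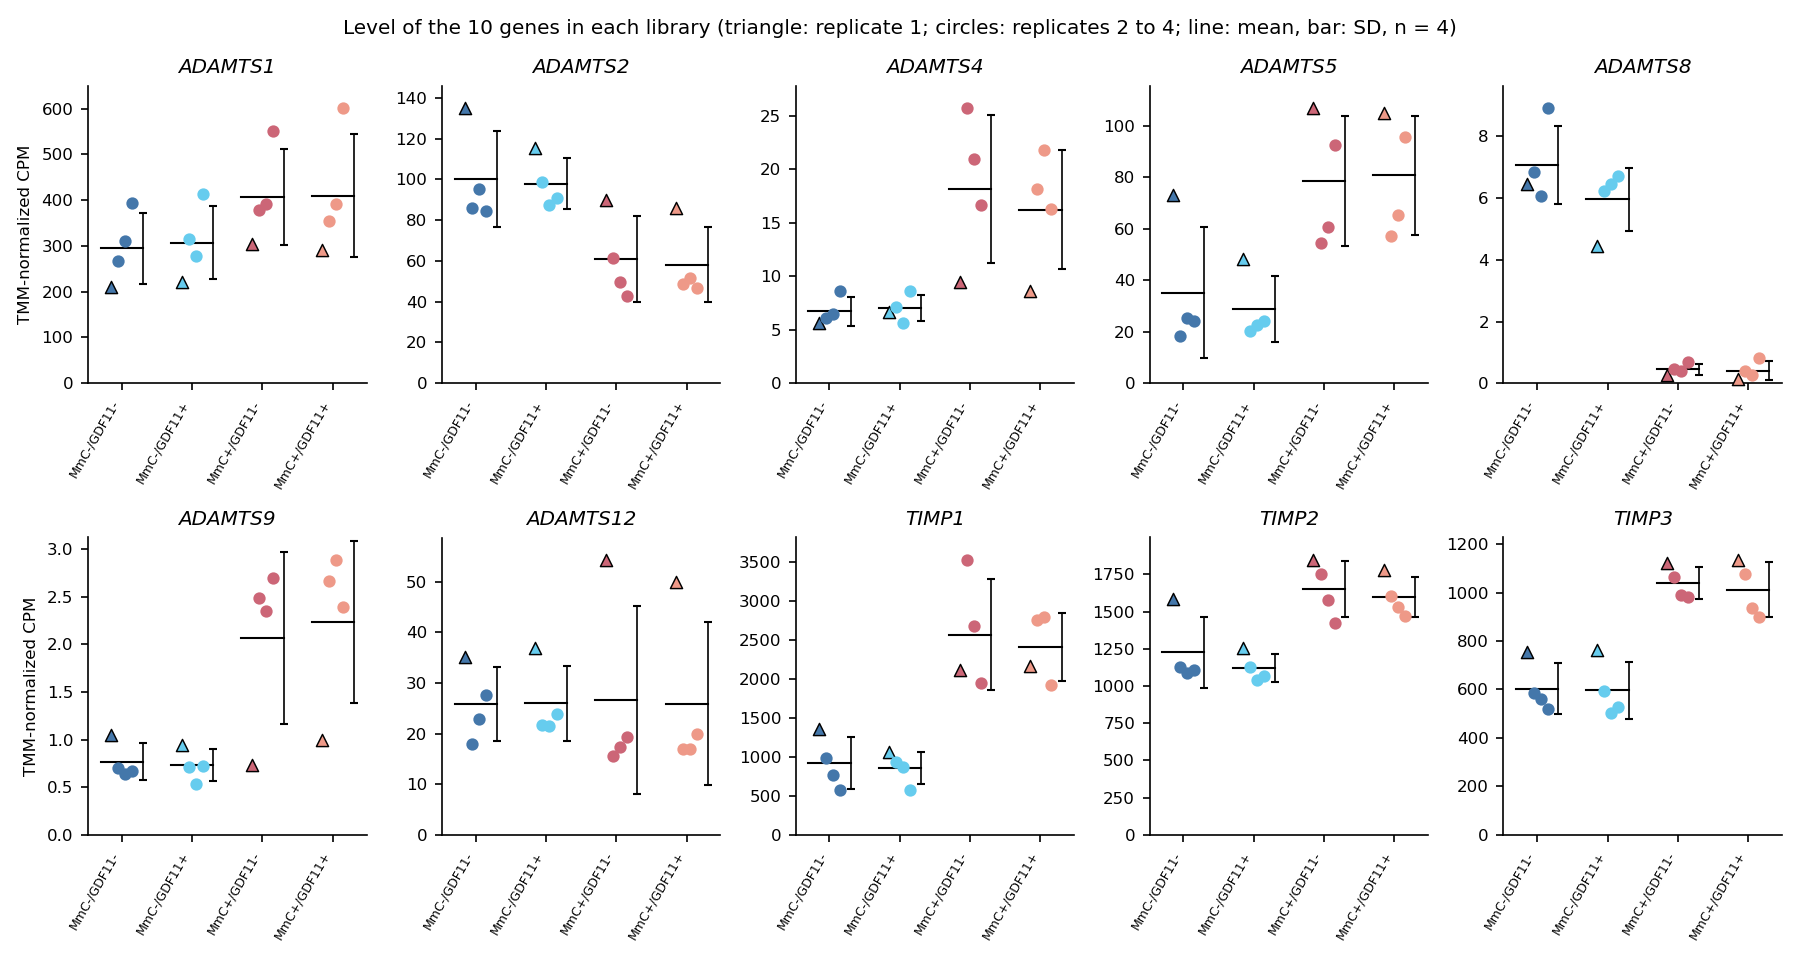
TMM-normalized CPM of the 10 genes (vertical axes, linear from 0) in the 4 groups (horizontal axes), 1 point per library, with the group mean (line) and SD (bar). ADAMTS8 lies under 1 CPM in all MmC+ libraries, TIMP1 and TIMP3 are higher in all MmC+ libraries, and replicate 1 (triangle) departs from the other replicates for ADAMTS5, ADAMTS9 and ADAMTS12.

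By the threshold used for calls, 8 of the 10 genes passed in the arm without GDF11 (6 higher, 2 lower), where 45.3% of the 19103 genes tested were called, 22.9% higher and 22.4% lower. The same 8 genes passed in the arm with GDF11, against 46.7% of all genes (23.4% higher, 23.3% lower). ADAMTS1 and ADAMTS12 were the genes that did not pass. Without replicate 1 the counts were 9 and 8, against 51.7% and 52.6% of 19338 genes. The MmC+ and MmC- libraries did not overlap for 4 of the 10 genes without GDF11 (ADAMTS4, ADAMTS8, TIMP1, TIMP3), against 37.3% of all genes (3 higher against 19.1%, 1 lower against 18.2%). With GDF11 they did not overlap for 7 genes, against 41.5% (5 higher against 20.2%, 2 lower against 21.2%). The median log2 fold change of the 10 genes was 0.62 and 0.64, and that of all genes tested was -0.01 in both arms. Since the genes were chosen with this contrast known, nothing is read from these shares.

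The count of 8 rested on single libraries for ADAMTS2 and ADAMTS5. In the arm without GDF11 both dropped out of it without a filter on low counts. Of the 8 libraries compared there, leaving out replicate 1 of MmC-/GDF11- or replicate 3 or 4 of MmC+/GDF11- took ADAMTS2 out of the count. ADAMTS5 left it without replicate 2, 3 or 4 of the young group or without replicate 1 or 4 of MmC+/GDF11-. In the arm with GDF11 ADAMTS2 left it without replicate 1 of MmC-/GDF11+ or without replicate 2, 3 or 4 of MmC+/GDF11+. Levels in these bulk samples cannot separate fewer cells of a type from less RNA per cell.

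No response of the 10 genes to GDF11 was called, in young or in senescent MSCs. The log2 fold changes ran from -0.29 (ADAMTS5) to 0.07 (ADAMTS4) in young and from -0.16 (ADAMTS4) to 0.12 (ADAMTS9) in senescent MSCs. In the fit without a replicate term, the lowest unadjusted p (edgeR quasi-likelihood test) was 0.345 (TIMP2) in young and 0.574 (ADAMTS4) in senescent MSCs. The lowest adjusted p was 1 in both at the precision given. A fit added after seeing the data took the replicate number as a block within each MmC arm. Its lowest unadjusted p (edgeR quasi-likelihood test) was 0.0492 (ADAMTS8) in young and 0.110 (ADAMTS4) in senescent MSCs, with no gene called. Over all 19103 genes 0 were called (0%), and an unadjusted p under 0.05 was found for 226 genes in young and 96 in senescent MSCs. With the replicate number as a block 0 genes were called as well, while those at an unadjusted p under 0.05 numbered 551 and 145, and with the block within each MmC arm they numbered 1444 and 246. By DESeq2 the counts were 1 and 0, and by limma-voom 0 and 0. The gene that DESeq2 called, VARS1, is none of the 10 and is named for this value.

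The size of a GDF11 response that these libraries leave possible depends on whether the replicate number enters the fit. In the fit without it, the 95% interval for TIMP2 was -0.41 to 0.15 in young and -0.33 to 0.23 in senescent MSCs, the narrowest of the set. For TIMP1 it was -0.64 to 0.45 in both, and for ADAMTS1 -0.47 to 0.59 and -0.52 to 0.54. The widest was that of ADAMTS12, -0.89 to 0.90 in young and -0.94 to 0.85 in senescent MSCs. ADAMTS8 and ADAMTS5 had intervals from -0.96 to 0.47 and from -1.15 to 0.58 in young cells. With the replicate number as a block within each MmC arm, a fit added after seeing the data, the intervals were narrower. In senescent MSCs, where the libraries were taken as paired, the interval for ADAMTS12 became -0.16 to 0.15, that for TIMP1 -0.25 to 0.11 and that for TIMP2 -0.18 to 0.09, and the widest was that of ADAMTS8, -0.62 to 0.19. A block common to both MmC arms gave -0.38 to 0.35 for ADAMTS12, -0.46 to 0.30 for TIMP1 and, as the widest, -0.67 to 0.95 for ADAMTS9. In young MSCs the libraries were not taken as paired. The block within the arm gave -0.49 to -0.0009 there for ADAMTS8 (unadjusted p = 0.0492, adjusted p = 0.66, edgeR), the lowest unadjusted p of the set in that fit. A p above the threshold does not show that the levels were alike.

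Same-numbered libraries with and without GDF11 lay close together for these genes. In senescent MSCs the median absolute log2 ratio over the 40 pairs of gene and replicate was 0.0842, and 37 were under 0.5. The exceptions included ADAMTS8 in replicate 1, at -0.89, where only 10 counts stood against 25. In young MSCs the median was 0.145 and 38 were under 0.5, with ADAMTS5 in replicate 1 the farthest at -0.60. For MmC the medians were 0.843 without and 0.908 with GDF11. No gene of the 10 had groups with and without GDF11 that failed to overlap, against 0.890% of all genes in young (0.377% higher, 0.513% lower) and 0.503% in senescent MSCs (0.209% higher, 0.293% lower).

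**Figure D2:**
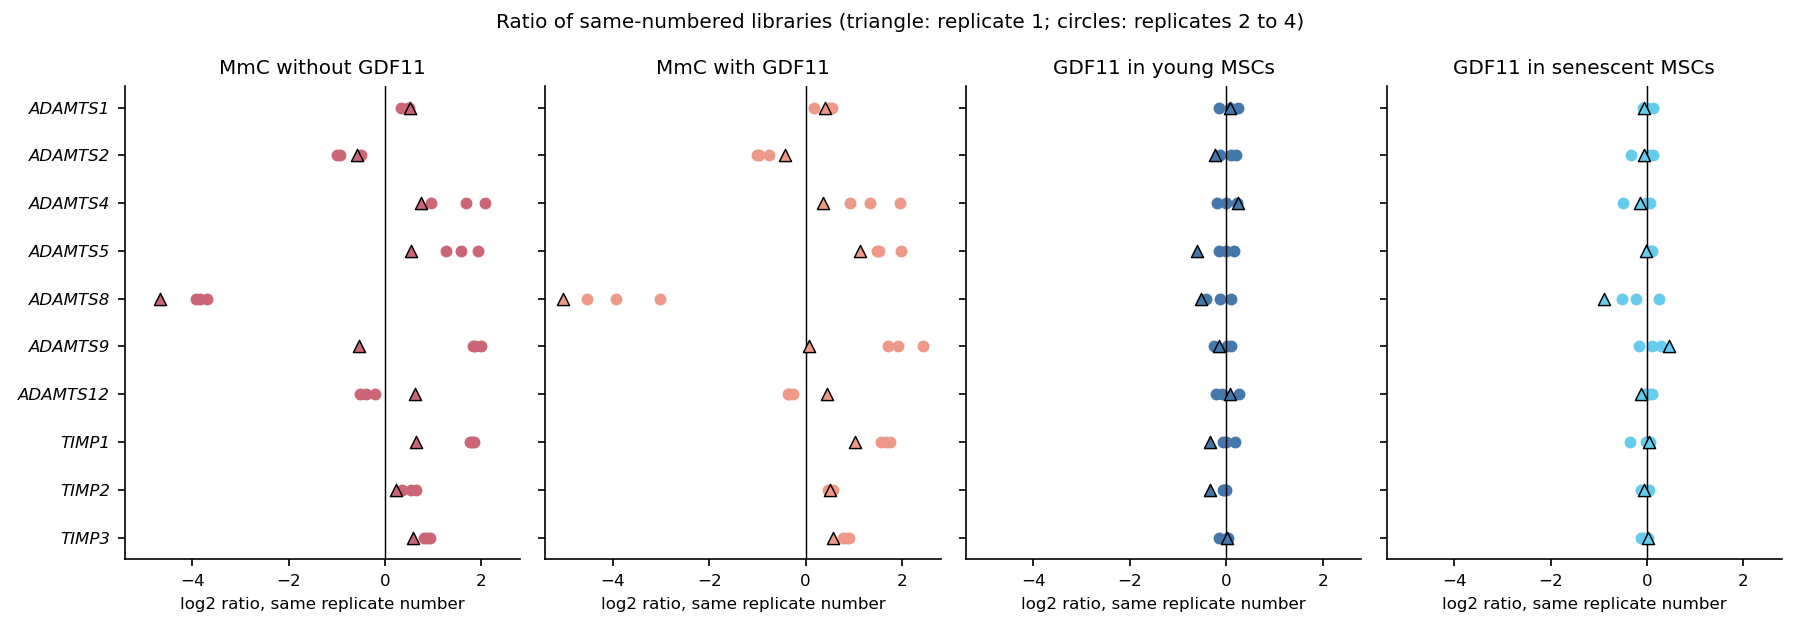
log2 ratio of TMM-normalized CPM between same-numbered libraries (horizontal axes) for each of the 10 genes (vertical axis), in 4 comparisons, 1 point per replicate number. The GDF11 ratios gather around 0, within 0.60 in young and 0.89 in senescent MSCs, whereas the MmC ratios reach -5.03 for ADAMTS8, and replicate 1 (triangle) lies apart for ADAMTS9 and ADAMTS12.

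Whether GDF11 altered the MmC difference was tested as an interaction. None of the 10 genes was called (0% of all genes were), and the estimates ran from -0.23 (ADAMTS4) to 0.32 (ADAMTS5), with a lowest unadjusted p of 0.579 for ADAMTS5 and an adjusted p of 1.00 (edgeR quasi-likelihood test). The interval for ADAMTS5 was -0.89 to 1.54, or -0.07 to 0.48 with the block within each MmC arm, and without replicate 1 of all groups its estimate was 0.08. Over all genes 172 were at an unadjusted p under 0.05 (296 with the replicate block and 645 with the block within each arm), and limma-voom and DESeq2 called 0.

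Per length, the 7 proteases of young cells summed to 233 ± 46.0 TPM without and 235 ± 47.2 TPM with GDF11, and those of senescent cells to 282 ± 58.1 and 280 ± 77.4 TPM (SD, n = 4). The 3 inhibitors summed to 3688 ± 1081 and 3472 ± 657 TPM in young and to 8431 ± 1768 and 7881 ± 1037 TPM in senescent cells. The level of TIMP transcripts per ADAMTS transcript was 16.5 ± 6.16 and 15.4 ± 4.68 in young and 31.2 ± 10.0 and 29.9 ± 8.80 in senescent MSCs, and its lowest values in senescent MSCs, 19.1 and 17.4, lay within the young range. Without replicate 1 it averaged 14.1 and 13.7 in young and 31.9 and 29.7 in senescent MSCs. The ranges then no longer overlapped, with a highest young value of 18.96 against a lowest senescent value of 19.08 without GDF11. With GDF11 these values were 16.1 and 17.4. Replicate 4 had the lowest ratio of all 4 groups, at 9.56 and 9.19 in young and 19.1 and 17.4 in senescent MSCs. Apart from replicate 4, the senescent ratios were at least 29.0 without and 30.6 with GDF11, against at most 23.7 and 20.5 in young MSCs. The log2 ratio of ADAMTS to TIMP differed by -0.94 and -0.96 between MmC+ and MmC-, which is a description. Between GDF11+ and GDF11- it differed by 0.076 in young (exact permutation test, two-sided, p = 0.83) and by 0.057 in senescent MSCs (p = 0.857, exact permutation test), where the smallest p that 4 against 4 libraries allow is 0.0286. The permutation test did not use the replicate numbers as pairs. These are levels of RNA, not of active protease or free inhibitor.

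The make-up of the pools differed as well. ADAMTS1 held 66.5% ± 11.0 of the summed TPM of the 7 proteases in MmC-/GDF11- and 73.3% ± 9.10 in MmC+/GDF11-. The share of ADAMTS2 was 18.9% ± 5.49 and 9.38% ± 3.97, that of ADAMTS5 6.11% ± 4.67 and 10.7% ± 3.48, and that of ADAMTS8 2.83% ± 0.324 and 0.143% ± 0.0402. ADAMTS9 stayed under 0.4% in every library. In the MmC+ groups ADAMTS5 stood above ADAMTS2 and ADAMTS9 above ADAMTS8 in mean level, the reverse of young cells, although the ranges of both pairs overlapped in MmC+. Among the inhibitors TIMP1 went from 64.9% ± 5.39 to 77.7% ± 4.35, while TIMP2 went from 21.1% ± 3.51 to 12.0% ± 2.30 and TIMP3 from 14.0% ± 1.95 to 10.3% ± 2.11.

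**Figure D3:**
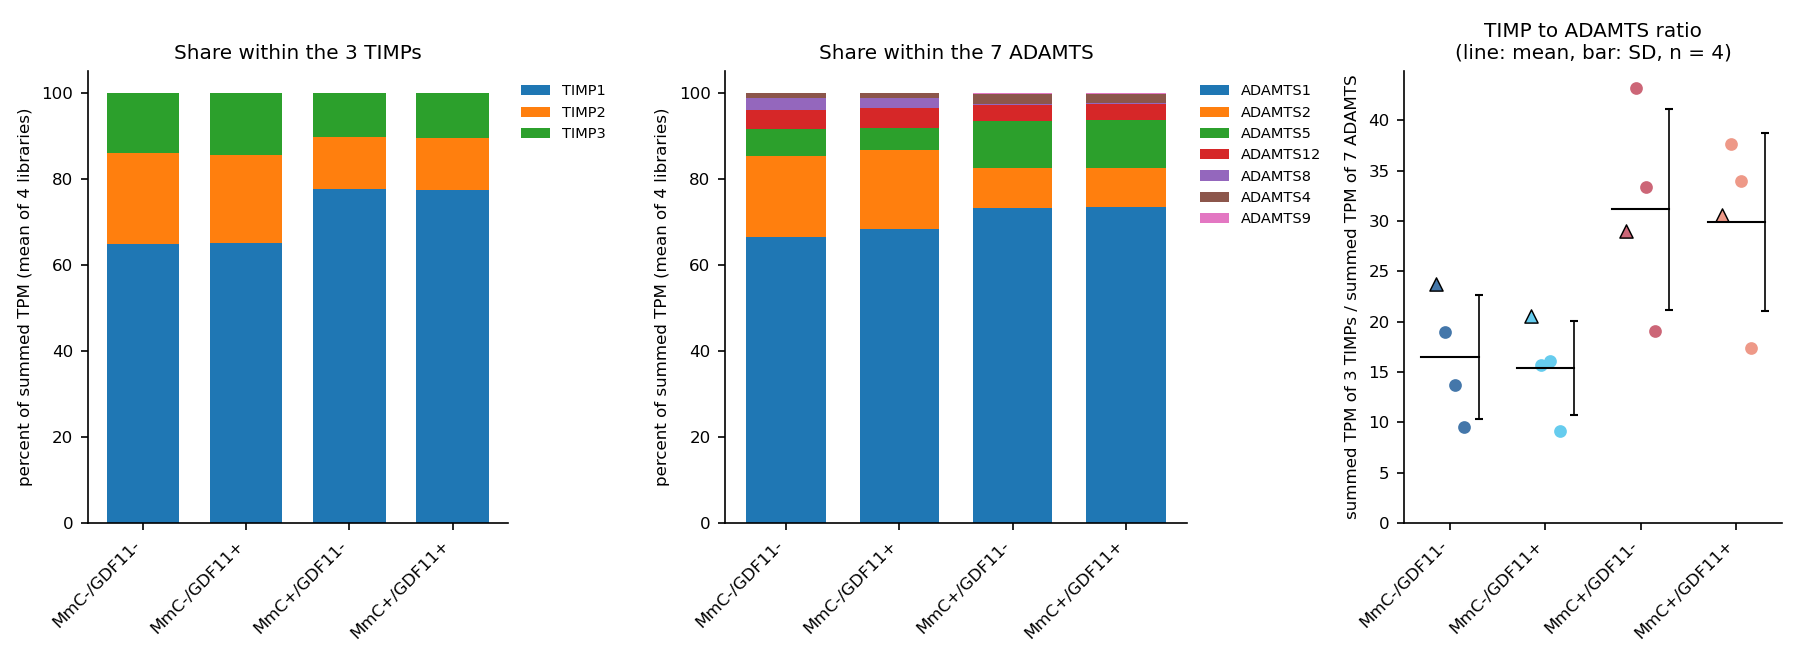
Left and middle, mean share of each gene in the summed TPM of the 3 TIMPs and of the 7 ADAMTS (percent, stacked bars from 0) in the 4 groups. Right, summed TPM of the 3 TIMPs divided by that of the 7 ADAMTS in each library (triangle, replicate 1), with the mean (line) and SD (bar). TIMP1 holds 77.7% of the TIMP pool in MmC+/GDF11- against 64.9% in MmC-/GDF11-, and the ratio averages 31.2 against 16.5 with overlapping ranges.

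The 7 proteases made up 72.0% ± 3.42 of the summed TPM of all 19 ADAMTS genes in MmC-/GDF11- and 83.9% ± 3.01 in MmC+/GDF11-. Of the other 12 ADAMTS genes 9 passed the filter on low counts, and 2 rose and 4 fell with MmC in each arm (edgeR, adjusted p under 0.05), where 22.9% of all genes rose and 22.4% fell without GDF11 and 23.4% and 23.3% with it. Their median log2 fold change was -0.47 without and -0.70 with GDF11. ADAMTS15, a versican-cleaving protease, fell from 62.6 ± 2.28 to 6.24 ± 3.20 CPM (log2 fold change -3.33 ± 0.36, adjusted p = 5.46e-06, edgeR). ADAMTS6 rose from 9.16 ± 2.52 to 27.9 ± 8.94 CPM (1.61 ± 0.30, adjusted p = 5.81e-04, edgeR). ADAMTS13, which cleaves von Willebrand factor, rose by 1.05 ± 0.29 from 1.14 ± 0.518 CPM (adjusted p = 0.00800, edgeR). ADAMTS14, a procollagen N-proteinase like ADAMTS2, was among the genes that fell, at -0.84 ± 0.15 (adjusted p = 3.64e-04, edgeR), and is named with its value known. TIMP4, the remaining inhibitor, rose by 0.54 ± 0.13 without GDF11 and by 0.41 ± 0.13 with it (adjusted p = 0.00297 and 0.0164, edgeR), to 20.7 TPM in MmC+/GDF11-. None of them was called for GDF11, and without replicate 1 the counts for MmC were again 2 and 4.

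**Figure D4:**
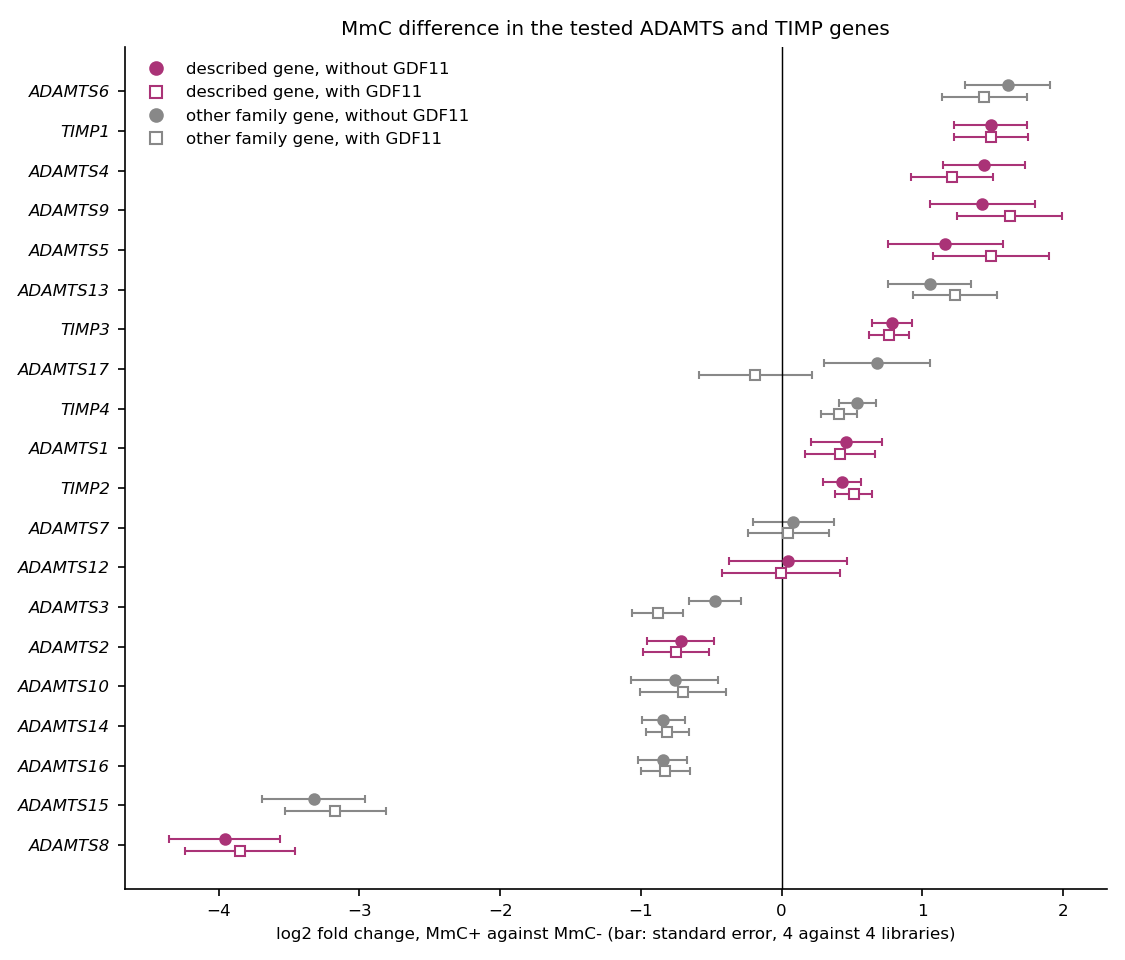
log2 fold change of MmC+ against MmC- (horizontal axis, bars show the standard error, 4 against 4 libraries) for the 10 genes (purple) and the 10 other ADAMTS and TIMP genes that passed the filter (grey), without GDF11 (filled circles) and with it (open squares). ADAMTS8 and ADAMTS15 lie farthest to the left, at -3.96 and -3.33 without GDF11. In the same arm TIMP1, ADAMTS4, ADAMTS5, ADAMTS6, ADAMTS9 and ADAMTS13 lie above 1.

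Of 9 listed MMPs, the enzymes that TIMPs inhibit, 8 were tested, MMP9 not passing the filter on low counts, and 7 rose and 0 fell with MmC in each arm, beside 22.9% and 23.4% of all genes that rose. The median log2 fold change was 2.54 and 2.51, against -0.01 for all genes. This list, too, was chosen with earlier results of these data known, so its counts and p-values are a description. MMP3 (stromelysin) rose by 7.13 ± 0.96 (adjusted p = 3.50e-05, edgeR), MMP1 (interstitial collagenase) by 3.85 ± 0.60 (adjusted p = 1.23e-04, edgeR) and MMP2 (gelatinase A) by 1.23 ± 0.15 (adjusted p = 7.84e-06, edgeR) on the log2 scale. MMP16, a membrane-bound MMP, was the tested gene that was not called, at -0.92 ± 0.42 without and -0.77 ± 0.42 with GDF11. Without replicate 1 it was called lower in the arm without GDF11 (-0.84, adjusted p = 0.0204, edgeR) and not in the other (-0.68, adjusted p = 0.0501, edgeR).

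Among 16 substrates and matrix partners of ADAMTS proteases 3 rose and 2 fell without GDF11, and 3 rose and 1 fell with it, with medians of -0.55 and -0.43. That is 5 and 4 called genes of 16, where 45.3% and 46.7% of all genes were called. Without replicate 1 of every group 5 rose and 5 fell in each arm, where 26.2% and 26.4% of all genes rose and 25.6% and 26.2% fell. ACAN, the aggrecan core protein, fell by 2.42 on the log2 scale, from 6.16 ± 5.23 to 1.14 ± 1.09 CPM (adjusted p = 0.0204, edgeR), with overlapping groups. THBS1 (thrombospondin 1) rose by 1.51 ± 0.40 (adjusted p = 0.00661, edgeR). COL1A1, a procollagen chain that ADAMTS2 processes, fell by 1.38 on this scale (standard error 0.54, adjusted p = 0.0485, edgeR) and was not called with GDF11 (adjusted p = 0.0612, edgeR). Without replicate 1 it was called lower in both arms, at -1.75 without and -1.95 with GDF11 (adjusted p = 4.66e-07 and 1.83e-07, edgeR). Also called lower there in both arms were COL1A2, COL3A1 and COL5A1, named with their values known. VCAN, the versican core protein, was the least changed of those that rose, from 346 ± 79.7 to 488 ± 32.5 CPM (0.50 ± 0.15), and FN1 (fibronectin) rose by 0.76 ± 0.19.

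Of 10 genes for activation, folding, clearance and other inhibition, 4 rose and 1 fell in each arm, beside 45.3% and 46.7% of all genes called in either direction. Without replicate 1 of every group 7 rose and 2 fell, beside 51.7% and 52.6% of all genes called. FURIN, the convertase that removes the prodomain of ADAMTS proteases, rose by 0.55 ± 0.10, and PCSK5, a related convertase, by 1.15 ± 0.31. POFUT2, which fucosylates their thrombospondin repeats, rose by 0.92 ± 0.12 (adjusted p = 2.53e-05, edgeR), and A2M, the general protease inhibitor alpha-2-macroglobulin, fell by 1.44 on the log2 scale (adjusted p = 0.00253, edgeR). SDC4 (syndecan 4) rose by 0.54 ± 0.13. LRP1, the endocytic receptor that clears TIMP3 and ADAMTS proteases, was not called over all libraries (0.26 ± 0.22), nor was RECK (0.34 ± 0.31). Without replicate 1 both were called higher in each arm. LRP1 was then at 0.34 without and 0.32 with GDF11 (adjusted p = 0.0244 and 0.0331, edgeR). RECK was at 0.38 and 0.40 (adjusted p = 0.0308 and 0.0221, edgeR). FURIN, SDC4, LRP1 and RECK are named with their values known.

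Among 8 ADAM sheddases 1 rose and 3 fell in each arm, beside the same 45.3% and 46.7% of all genes. ADAM33 fell by 0.91 on the log2 scale, ADAM12 by 0.80 and ADAM19 by 0.76 (adjusted p = 0.00339, 6.55e-04 and 0.00578, edgeR), and ADAM17, which TIMP3 inhibits, was not called (0.26 ± 0.11, adjusted p = 0.0744, edgeR). Of 7 ADAMTS-like proteins and papilin, which lack a protease domain, 1 rose (ADAMTSL3) and 1 fell (ADAMTSL2) in each arm, both under 0.6 CPM and named with their values known. None of these lists held a gene called for GDF11.

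Markers of other cell types summed to far less than the MSC markers, though those of smooth muscle and pericytes reached 135 CPM. Summed over 6 endothelial markers the level was 8.69 to 12.5 CPM in the young groups and 9.39 to 22.7 CPM in the MmC+ groups, mainly from PECAM1, whose group mean went from 5.96 ± 1.20 to 14.4 ± 5.90 CPM. The markers did not move together: CDH5 fell from 2.42 ± 0.468 to 0.850 ± 0.116 CPM (log2 fold change -1.51, adjusted p = 4.48e-06, edgeR), VWF rose from 0.939 ± 0.264 to 1.48 ± 0.220 CPM (0.66, adjusted p = 0.0272, edgeR) and TIE1 was not called. KDR and CLDN5, which define endothelial cells, had group means under 0.2 CPM. The 6 leukocyte markers summed to 2.04 to 3.03 CPM in young and 3.38 to 5.72 CPM in MmC+ cells, with AIF1 at 0 counts in all 16 libraries and CD3E at 0 in young cells. The 5 smooth muscle and pericyte markers summed to 51.1 to 83.1 CPM in young and 115 to 135 CPM in MmC+ cells, mainly from NOTCH3, with MYH11 at 1 count in all libraries together. Mature adipocyte markers did not exceed 1.50 CPM and epithelial markers 1.29 CPM in sum. The part of these shifts in the MmC differences of the proteases and inhibitors was not tested.

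The genes whose level followed TIMP1 and ADAMTS8 most closely, the members with the highest and the lowest MmC fold change without GDF11 over all libraries, were taken over 16 libraries among 12030 genes. With GDF11, and without replicate 1 in either arm, the member with the highest fold change was ADAMTS9 instead. For TIMP1 they were FMNL1, GABARAPL1 and TOM1 (Pearson r of log2 CPM 0.982, 0.981 and 0.979), and for ADAMTS8 PRDM16, TMCO6 and MCF2L (0.987, 0.986 and 0.983). After the group means were subtracted they were PSD, GABARAPL1 and FSTL3 for TIMP1 (0.949, 0.938 and 0.932) and LINC02957, CAMK1D and PLIN2 for ADAMTS8 (0.933, 0.925 and 0.917). These correlations are descriptions across libraries that share groups and replicate numbers.

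Within groups the members did not move as 1 set. With group means subtracted, 23 of the 45 pairs of members had a correlation above 0 and 22 below it, with a median r of 0.01. At the upper end TIMP2 went with TIMP3 (r = 0.863) and ADAMTS2 with TIMP2 (0.858) and ADAMTS12 (0.851) over the 16 libraries, and ADAMTS4 went with ADAMTS9 (0.773). At the lower end ADAMTS4 and ADAMTS12 (-0.802), ADAMTS1 and TIMP3 (-0.781) and ADAMTS2 and ADAMTS8 (-0.78) went in opposite directions, and pairs such as ADAMTS9 and TIMP3 (0.01) lay near 0. Replicate 1 was the highest library of every group for ADAMTS2, ADAMTS12, TIMP2 and TIMP3 and the lowest for ADAMTS1, and its part in these values was not tested.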

How the data were processed

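Poly(A) RNA of 16 libraries was sequenced, 4 biological replicates in each of 4 groups, and groups and replicate numbers came from the sample labels. The authors aligned the reads to GRCh38 (hg38) with HISAT2 2.2.1, processed the alignments with SAMtools and counted reads on GENCODE V38 genes with featureCounts 2.0.1 (versions from the submitters' processing notes), and they deposited raw counts without normalization. The strand setting, the treatment of reads with several alignments and a test for differential expression were not given in the sources used here. A strand or multi-mapping setting could move counts of overlapping genes.

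The counts were tested with edgeR 4.0.16 (R 4.3.3). The filterByExpr filter used a minimum count of 10 and a minimum total of 15, TMM set the scale of each library, and a robust quasi-likelihood model gave each group a mean, with all 16 libraries in the fit. MmC was contrasted in either GDF11 arm and GDF11 in either MmC arm, beside the interaction, with Benjamini-Hochberg adjustment over 19103 genes at 0.05. The steps were tested on simulated data. CPM uses the scaled library sizes, and TPM uses merged exon lengths of GENCODE v44, a later release than the authors', because the count table gave no length. Of the 60649 identifiers 60463 matched that release, 44 were copies on the Y chromosome of shared regions and 142 had no match.

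The 10 genes and all lists were chosen with earlier results of these data known. Named from the other lists are at most 3 called genes with the largest change and a mean log2 CPM of at least 0, beside FN1, VCAN, MMP16, ADAM17, defining cell type markers and those stated to be named for their values, which fall outside this rule. Correlations used log2 CPM (prior count 2) and genes with a mean of at least 1.

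Whether replicate numbers pair libraries was checked by the correlation of deviations from group means. It was at least 0.113 in the MmC comparison without GDF11 and at least 0.448 for the senescent GDF11 comparison, which were taken as paired, and its lowest value was 0.0293 for MmC with GDF11 and 0.0982 for GDF11 in young MSCs, which were not. This split followed the lowest value of each comparison alone. The highest value was 0.504 for GDF11 in young MSCs and 0.368 for MmC without GDF11. The fit used here has no replicate term. Alternatives were upper-quartile or RLE scaling, all genes without a filter, DESeq2 1.42.0, limma-voom (limma 3.58.1), only the compared libraries, the replicate number as a block, and each library or replicate number left out. A block within each MmC arm and the longest transcript as gene length were added after seeing the data, as were list counts without replicate 1.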

Additional observations from a re-analysis of the deposited data

Results flagged for a closer look

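Of 40 combinations of gene and group, 8 held a library farther from the other 3 than Dixon's 95% limit for 4 samples allows. All 8 were the highest value of replicate 1. The limit flags about 1 in 20 groups by chance, but the 10 genes share the same 16 libraries, so the combinations are not independent. No excess over chance is read from the 8, and the share over all genes was not counted. ADAMTS5 was at 73.1 CPM in replicate 1 of MmC-/GDF11-, against 18.2 to 25.4 in the others, and at 48.2 CPM in MmC-/GDF11+, against 20.4 to 24.1. ADAMTS12 was at 36.8 CPM in MmC-/GDF11+ (others 21.5 to 23.8), at 54.4 CPM in MmC+/GDF11- (15.6 to 19.3) and at 49.9 CPM in MmC+/GDF11+ (16.9 to 19.9). ADAMTS2 was at 85.8 CPM in MmC+/GDF11+, against 46.7 to 51.6. TIMP2 was at 1584 CPM in MmC-/GDF11-, against 1086 to 1124. ADAMTS9 was at 1.05 CPM in MmC-/GDF11-, against 0.642 to 0.704. The limit was applied to CPM, not to log2 CPM. Low values of replicate 1 were not flagged, among them ADAMTS9 at 0.729 CPM in MmC+/GDF11-, against 2.36 to 2.69. The source of the separate values of replicate 1 was not tested.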

How the results depend on the processing

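The number of genes called for MmC was 8655 without and 8926 with GDF11, and leaving out a replicate number or a library gave 5490 to 10004 and 5505 to 10164. Of the 10 genes 8 were called in each arm, beside 45.3% and 46.7% of all genes. With libraries left out 4 to 9 and 6 to 8 were called. The lowest counts over all genes there were of 19158 tested and the highest of 19338. Under the other settings 6 to 9 and 7 to 9 of the 10 were called. Without a filter 8386 and 8605 of 41196 genes were called. The replicate number as a block gave 11066 and 11267 of 19103 genes and 9 of the 10 in each arm, adding ADAMTS1, and changed no other call of the 10. ADAMTS12 without GDF11 ran from -0.56 to 0.24 with libraries left out, and it joined the genes past the threshold, at -0.39, without replicate 1 of every group. ADAMTS2, ADAMTS4, ADAMTS5, ADAMTS9 and TIMP2 dropped out of that count in some settings and ADAMTS8, TIMP1 and TIMP3 in none, ADAMTS4 only in the arm with GDF11 without replicate 3. These counts are no tests of the 10 genes, which were chosen with this contrast known. ADAMTS5 for GDF11 in young MSCs went from -0.29 to 0.36 and its interaction from 0.32 to -0.32 without replicate 1 of MmC-/GDF11-. ADAMTS12 for GDF11 in senescent MSCs went to 0.57 and its interaction to 0.56 without replicate 1 of MmC+/GDF11-, and none of these was called. For GDF11 in young MSCs 1 gene, VARS1, was called by DESeq2 and without replicate 2, and 0 to 1 with libraries left out. None of the 10 genes was called for GDF11 or the interaction under any setting, though uncalled values changed sign in 27 of 200, 34 of 200 and 50 of 270 cases. Without replicate 1 the counts for the substrate list went from 5 and 4 called genes to 10 in each arm. The cause of these shifts was not tested. The share of a gene within a pool is the same in TPM and in scaled RPKM by construction. Counts of 10 to 77 per library limit the precision of ADAMTS8 in MmC+ cells.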
